A study of Homo sapiens with 9 samples.

Results

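The 10 core circadian clock genes described here are CLOCK, BMAL1, PER1, PER2, PER3, CRY1, CRY2, NR1D2, BHLHE40 and NOCT, out of 22109 genes measured. The cells were MDA-MB-231, a human breast cancer line of the triple-negative type. They were taken from probe sets annotated with exactly 1 gene symbol, and each gene's probe set was chosen by its mean level over all 9 arrays, the brightest being kept. That choice applied to CRY2, whose probe sets averaged 4.89 and 2.87 log2 units; the other members had 1 probe set each. The genes themselves were put forward with earlier results of these data known, so the adjusted p-values below describe each gene and are not independent evidence for the set.

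Cells were exposed to YM-155 (sepantronium bromide), a small molecule known as a suppressor of survivin, and total RNA was hybridised to Affymetrix whole-transcript arrays. A first group of 3 arrays came from cells treated for 20 h at 14.6 ng/ml, the LC50 given in the labels. A second group of 3 came from cells treated for 8 h with increments of the drug adding up to 83 ng/ml. A control group of 3 came from untreated cells, with no vehicle, collection time or time in culture given. Dose, duration and time of collection thus cannot be told apart. Nothing in the labels says whether replicates came from separate cultures, and the spread that the p-values rest on may be technical. Values are RMA levels, array summaries on the log2 scale, and changes are YM-155 minus control in log2 units. A gene was called higher or lower when its limma p-value, adjusted over all genes, was under 0.05.

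The circadian clock of mammalian cells is a transcriptional feedback loop. CLOCK and BMAL1 form a heterodimer that binds E-box sequences and activates the PER and CRY genes, whose proteins return to the nucleus and repress the heterodimer. A second loop runs through the REV-ERB receptors, of which NR1D2 encodes REV-ERB beta, and the ROR receptors, which compete at sites in BMAL1. BHLHE40 is an E-box repressor that responds to many stimuli, and NOCT encodes nocturnin, a rhythmic member of a family of nucleases related to deadenylases. In cultured cells PER1 and PER2 are also early response genes that serum, cyclic AMP or glucocorticoids can induce.

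Control replicate 3 stood apart from the other controls, at several clock genes and at other genes too. The SDs of its differences from control replicates 1 and 2 were 0.312 and 0.313 across the 11054 brighter genes (those above the median level), against 0.187 between those replicates. PER2 was 1.30 above the mean of control replicates 1 and 2 on that array, PER3 1.07, NOCT 1.04, PER1 0.94 and NR1D2 0.94. BMAL1, the activator, went the other way, with a difference of -1.23. The differences of CRY2 and BHLHE40 were 0.55 and 0.30, and those of CRY1 and CLOCK were -0.01 and -0.04. Some early response genes outside the 10, named here after their values were seen, showed it as well: FOSB was 1.41 higher on that array, FOS 1.08 and DUSP1 0.79. Other early response genes differed less: SIK1 by 0.59, NR4A3 by 0.35, ATF3 by 0.26, NR4A1 by 0.18 and NR4A2 by 0.13. A difference of at least 0.9 in size, a cut-off chosen after the values were seen, was met by 6 of the 10 clock genes and by 0.489% of all genes. All 10 clock genes were among the brighter genes, of which 0.796% met it. Because this rests on 1 array it has no test. Results of the 10 clock genes below are given without that array too where a call depends on it. Some counts of the other lists also changed without it and are given with all 9 arrays only.

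**Figure D1:**
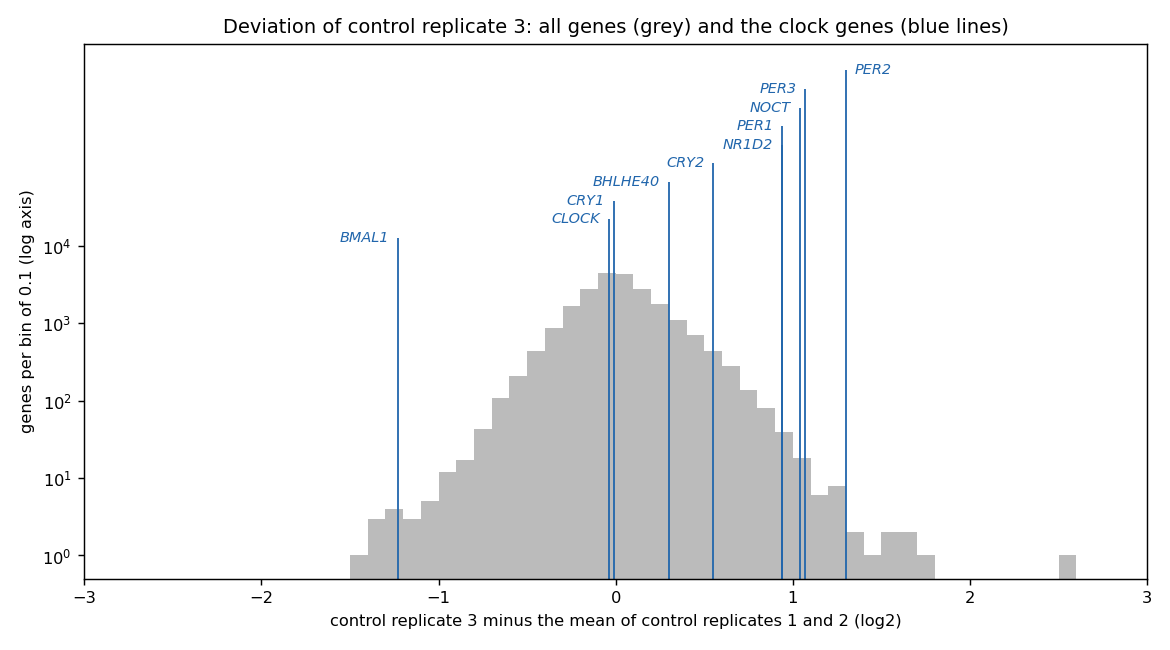
Difference between control replicate 3 and the mean of control replicates 1 and 2 (log2, x axis) for all 22109 genes, as a histogram with a log axis for genes per bin, with a blue line of arbitrary height at each clock gene. PER2, PER3, NOCT, PER1 and NR1D2 lie at 0.94 to 1.30 and BMAL1 at -1.23, while CLOCK and CRY1 lie near 0.

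At 20 h, 9 of the 10 clock genes passed the test, against 30.3% of all genes: 8 were higher (13.1% of all genes) and CLOCK was lower (17.2%). At 8 h, 6 passed, against 12.2% of all genes, and these 6 were all higher (5.93% of all genes were higher and 6.28% lower). The median change of the 10 genes was 1.20 at 20 h and 0.94 at 8 h, where the medians of all genes were 0.028 and -0.003. At least 2-fold and past the test were 6 members at 20 h (6.55% of all genes) and 5 at 8 h (1.33%). The arrays of the groups did not overlap for 9 members at 20 h (40.6% of all genes) and for 7 at 8 h (27.4%). Without control replicate 3, all 10 passed at 20 h (31.2% of all genes) and 9 at 8 h (13.2%), again with CLOCK lower at 20 h. That array was singled out for its values at these genes. Leaving it out therefore narrows the spread of several of them, and the added calls are not further evidence. The count at 8 h was 5 without control replicate 1 or 2, and 4 without any of the 8 h arrays in turn. The comparisons of 20 h and of 8 h share the same controls. The arrays measured bulk RNA, in which fewer cells expressing a gene and less RNA per cell cannot be told apart.

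**Figure D2:**
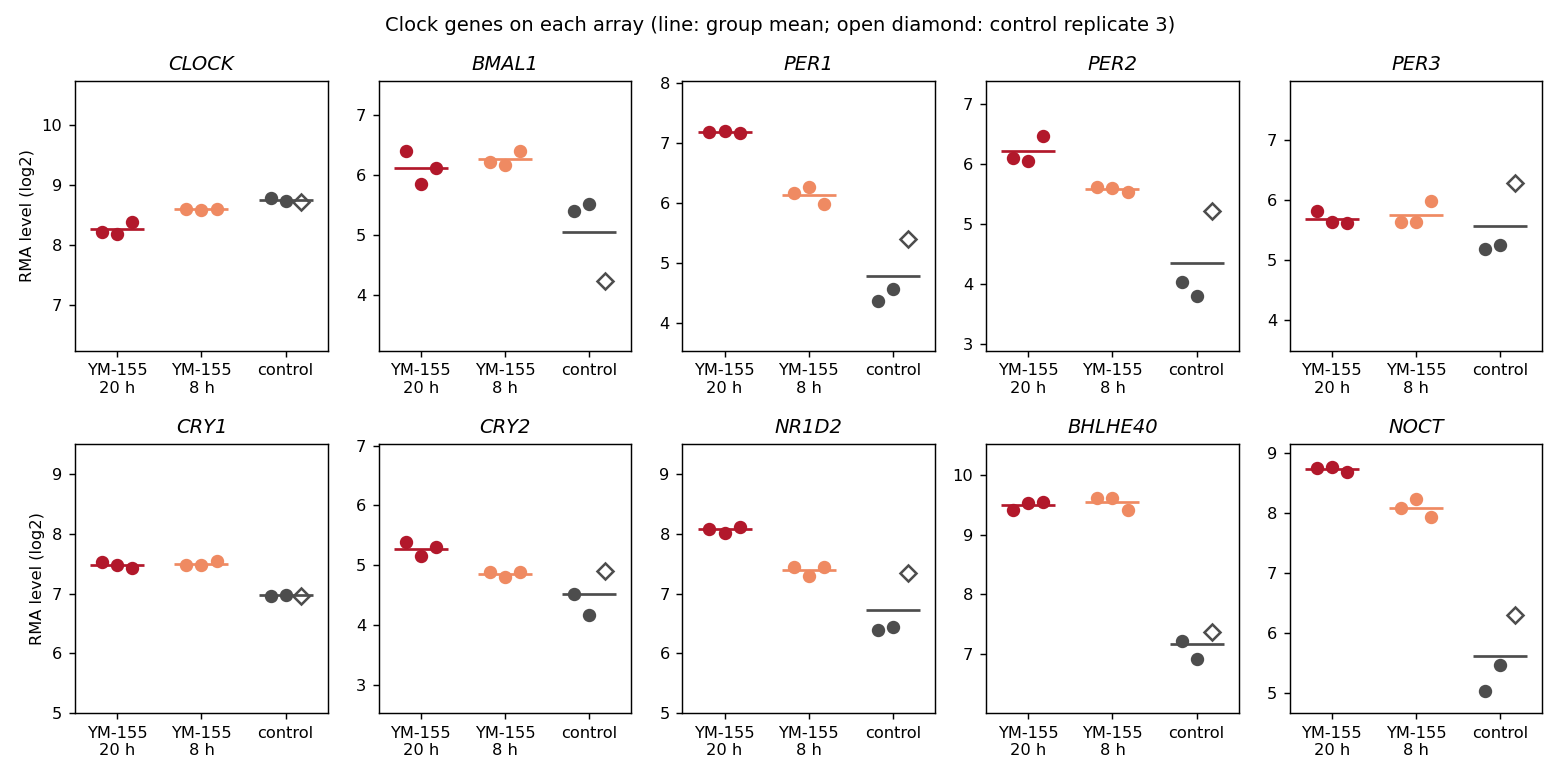
RMA level (log2, y axis) of the 10 clock genes on each of the 9 arrays, by group (x axis), with a line at each group mean; every panel spans the same number of log2 units, and the open diamond is control replicate 3. NOCT, BHLHE40, PER1 and PER2 lie higher on all 6 treated arrays than on all controls, whereas for PER3 the open diamond lies above every treated array.

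The activators moved apart. CLOCK (probe set 16976074), the histone acetyltransferase partner of the heterodimer, had levels of 8.22, 8.19 and 8.39 at 20 h, 8.60, 8.59 and 8.61 at 8 h, and 8.79, 8.74 and 8.72 in controls. The 20 h arrays were the lowest and the groups did not overlap. CLOCK fell by 0.48 at 20 h (SE 0.08, limma adjusted p = 0.000872), and its difference at 8 h was -0.15 (SE 0.08, limma adjusted p = 0.283). BMAL1 (probe set 16722217), the other subunit and the gene without which the rhythm is lost in mice, had 6.40, 5.86 and 6.12 at 20 h, 6.22, 6.18 and 6.41 at 8 h, and 5.40, 5.53 and 4.24 in controls. All 6 treated arrays lay above the controls, of which replicate 3 was the lowest. BMAL1 rose by 1.07 at 20 h (SE 0.29, limma adjusted p = 0.0172) and by 1.21 at 8 h (SE 0.29, limma adjusted p = 0.0218). With control replicate 3 left out the rises were 0.66 (limma adjusted p = 0.00877) and 0.80 (limma adjusted p = 0.0087). BMAL1 lost its call at 20 h without 20 h replicate 1 (limma adjusted p = 0.0693) or 3 (0.0515), and the call at 8 h ended without any 1 of the 8 h arrays (0.0557 to 0.0835). With only the groups compared in the fit, neither passed (limma adjusted p = 0.0527 at 20 h and 0.0648 at 8 h).

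Among the PER repressors, PER1 and PER2 rose. PER1 (probe set 16840846) had 7.19, 7.20 and 7.16 at 20 h, 6.16, 6.26 and 5.98 at 8 h, and 4.37, 4.57 and 5.40 in controls. The groups formed separate steps, and the 20 h arrays lay close together. PER1 rose by 2.40 at 20 h, which is 5.28-fold (SE 0.22, limma adjusted p = 1.81e-05), and by 1.35 at 8 h, 2.56-fold (SE 0.22, limma adjusted p = 0.00293). Both calls held when any 1 array was left out, with changes of 2.20 to 2.71 and of 1.15 to 1.66.

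PER2 (probe set 16909958), whose protein carries the phosphorylation sites that set the length of the cycle, had 6.11, 6.05 and 6.48 at 20 h, 5.62, 5.61 and 5.54 at 8 h, and 4.04, 3.80 and 5.22 in controls. Control replicate 3 lay below the lowest 8 h array, and the other controls lay lower still. PER2 rose by 1.86 at 20 h (SE 0.30, limma adjusted p = 0.00082) and by 1.24 at 8 h (SE 0.30, limma adjusted p = 0.0236). The call at 8 h ended without control replicate 1 (limma adjusted p = 0.0871), control replicate 2 (0.0778) or any 1 of the 8 h arrays (0.0691 to 0.0747), and with only the groups compared in the fit (0.0725). Without control replicate 3 the changes were 2.30 at 20 h (limma adjusted p = 4.6e-06) and 1.67 at 8 h (limma adjusted p = 0.000135).

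PER3 (probe set 16658536), which is dispensable for rhythms in mice, had 5.82, 5.63 and 5.61 at 20 h, 5.63, 5.63 and 5.98 at 8 h, and 5.19, 5.25 and 6.28 in controls. Treated arrays lay between the controls: above replicates 1 and 2 and below replicate 3. Its changes were 0.11 at 20 h (SE 0.25, limma adjusted p = 0.783) and 0.18 at 8 h (SE 0.25, limma adjusted p = 0.754). They were 0.47 (SE 0.12, limma adjusted p = 0.0184) and 0.53 (SE 0.12, limma adjusted p = 0.0232) without control replicate 3, so whether PER3 passed was decided by that array.

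The changes of the CRY repressors were smaller than those of PER1 and PER2, as log2 differences. CRY1 (probe set 16769622), the stronger repressor of the pair in mouse cells, had 7.53, 7.48 and 7.42 at 20 h, 7.47, 7.48 and 7.54 at 8 h, and 6.96, 6.98 and 6.96 in controls. Its controls lay close together, replicate 3 included, and the treated groups overlapped each other but not the controls. CRY1 rose by 0.51 at 20 h (SE 0.07, limma adjusted p = 0.0003) and by 0.53 at 8 h (SE 0.07, limma adjusted p = 0.00102). CRY2 (probe set 16724194), its paralogue, had 5.39, 5.15 and 5.30 at 20 h, 4.89, 4.81 and 4.89 at 8 h, and 4.53, 4.17 and 4.90 in controls. The 20 h arrays were the highest, and control replicate 3 lay just above the 8 h arrays. CRY2 rose by 0.75 at 20 h (SE 0.16, limma adjusted p = 0.00407), and its change at 8 h was 0.33 (SE 0.16, limma adjusted p = 0.235). The change at 8 h was 0.51 without control replicate 3 (limma adjusted p = 0.0235) and 0.149 without control replicate 2 (limma adjusted p = 0.573). The dimmer CRY2 probe set, which the selection did not use, had 3.02, 3.02 and 3.19 at 20 h, 2.83, 2.80 and 2.82 at 8 h, and 2.65, 2.70 and 2.78 in controls. It rose by 0.37 at 20 h (SE 0.08, limma adjusted p = 0.00505 over all probe sets with 1 symbol) and differed by 0.11 at 8 h (SE 0.08, limma adjusted p = 0.474). Between 20 h and 8 h the dimmer probe set passed, with a difference of 0.26 (SE 0.08, limma adjusted p = 0.0408), where the brighter one did not (0.42, limma adjusted p = 0.0841).

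NR1D2 (probe set 16938378), the heme-binding repressor of BMAL1, had 8.08, 8.01 and 8.11 at 20 h, 7.44, 7.30 and 7.44 at 8 h, and 6.39, 6.44 and 7.35 in controls. Control replicate 3 lay among the 8 h arrays, while all 20 h arrays lay above the rest. NR1D2 rose by 1.34 at 20 h (SE 0.21, limma adjusted p = 0.000742), and its change at 8 h was 0.67 (SE 0.21, limma adjusted p = 0.0729). Without control replicate 3 the changes were 1.65 (limma adjusted p = 2.01e-06) and 0.98 (limma adjusted p = 0.000158). NR1D2 and its target BMAL1 were thus both higher at 20 h than in controls, whereas in control replicate 3 NR1D2 was higher and BMAL1 lower than in the other controls.

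BHLHE40 and NOCT had the largest changes of the 10 genes at 8 h. BHLHE40 (probe set 16937024) had 9.41, 9.53 and 9.54 at 20 h, 9.61, 9.61 and 9.41 at 8 h, and 7.23, 6.92 and 7.38 in controls. The treated groups overlapped each other and lay above the highest control. BHLHE40 rose by 2.32 at 20 h, 4.98-fold (SE 0.12, limma adjusted p = 5.11e-07), and by 2.37 at 8 h, 5.17-fold (SE 0.12, limma adjusted p = 6.04e-06), which was the 8th largest rise of all genes at 8 h and the 65th at 20 h. NOCT (probe set 16970853) had 8.76, 8.78 and 8.69 at 20 h, 8.08, 8.24 and 7.93 at 8 h, and 5.04, 5.47 and 6.30 in controls. All treated arrays lay above the highest control, which was replicate 3. NOCT rose by 3.14 at 20 h, 8.80-fold (SE 0.25, limma adjusted p = 7.89e-06), and by 2.48 at 8 h, 5.57-fold (SE 0.25, limma adjusted p = 0.000187), the 12th and the 4th largest rises of all genes. Both genes kept their calls when any 1 array was left out.

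**Figure D3:**
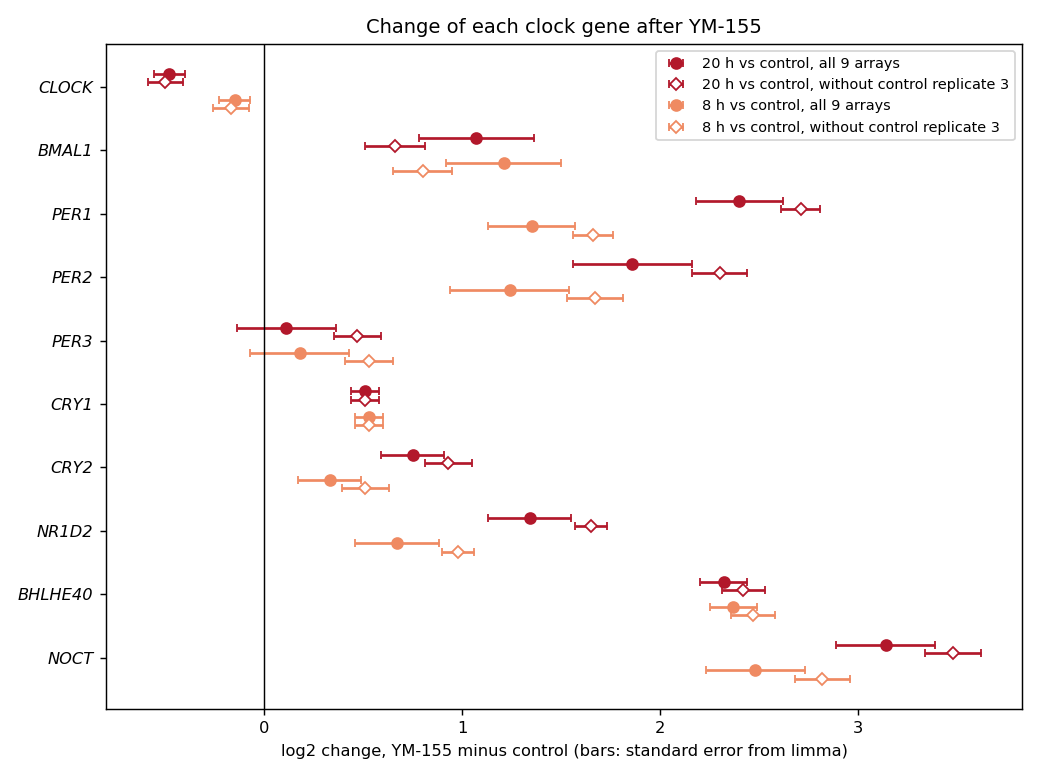
Change of each clock gene from control (log2, x axis; bars are standard errors from limma) at 20 h (dark) and 8 h (light), with all 9 arrays (circles) and without control replicate 3 (open diamonds). Leaving out that control moved PER1, PER2, PER3, CRY2, NR1D2, BHLHE40 and NOCT to the right and BMAL1 to the left, and left CLOCK and CRY1 nearly in place.

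Sequences of the proximal promoters are shown for PER1, PER2, NR1D2 and BHLHE40, known targets of the CLOCK and BMAL1 heterodimer that all rose at 20 h, and for BMAL1, the target of the REV-ERB and ROR receptors. They are RefSeq windows of 300 bases on GRCh38.p14, each spanning an annotated start and mostly upstream of it, and all 10 members matched by symbol, with 15 windows in all. Capitals mark matches on either strand to the E-box CACGTG, the E-box-like element CACGTT, the D-box TTATGNAA, which PAR bZIP factors and NFIL3 bind, and AGGTCA, the core of the sites that REV-ERB and ROR receptors bind; the matches in these windows do not overlap. The windows are PER1 at chr17:8152355-8152654 (minus strand), PER2 at chr2:238288561-238288860 (minus), NR1D2 at chr3:23945871-23946170 (plus, one of its 2 windows), BHLHE40 at chr3:4979187-4979486 (plus) and BMAL1 at chr11:13277540-13277839 (plus, one of its 2 windows).
PER1: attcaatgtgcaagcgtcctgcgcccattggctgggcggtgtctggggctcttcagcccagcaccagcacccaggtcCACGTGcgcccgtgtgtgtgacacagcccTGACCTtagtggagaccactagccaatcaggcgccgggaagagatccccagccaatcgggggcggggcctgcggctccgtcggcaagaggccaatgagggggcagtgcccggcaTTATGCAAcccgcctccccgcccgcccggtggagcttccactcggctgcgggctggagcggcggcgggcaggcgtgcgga
PER2: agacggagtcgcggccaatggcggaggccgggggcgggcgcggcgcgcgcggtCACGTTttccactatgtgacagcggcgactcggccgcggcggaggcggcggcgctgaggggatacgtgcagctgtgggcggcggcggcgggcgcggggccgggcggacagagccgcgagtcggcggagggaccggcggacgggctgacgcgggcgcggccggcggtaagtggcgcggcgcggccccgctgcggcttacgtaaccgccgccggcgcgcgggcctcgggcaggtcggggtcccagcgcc
NR1D2: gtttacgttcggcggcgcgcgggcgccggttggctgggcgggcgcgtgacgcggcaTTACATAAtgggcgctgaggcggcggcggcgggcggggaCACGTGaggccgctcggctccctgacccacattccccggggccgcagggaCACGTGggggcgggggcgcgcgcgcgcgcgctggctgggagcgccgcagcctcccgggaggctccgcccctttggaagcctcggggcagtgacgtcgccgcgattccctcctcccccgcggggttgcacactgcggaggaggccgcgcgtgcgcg
BHLHE40: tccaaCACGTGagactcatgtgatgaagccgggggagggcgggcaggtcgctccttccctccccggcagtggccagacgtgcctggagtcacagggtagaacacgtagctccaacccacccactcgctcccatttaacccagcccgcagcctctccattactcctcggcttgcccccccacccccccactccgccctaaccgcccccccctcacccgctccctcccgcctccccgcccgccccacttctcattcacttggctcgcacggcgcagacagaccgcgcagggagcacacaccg
BMAL1: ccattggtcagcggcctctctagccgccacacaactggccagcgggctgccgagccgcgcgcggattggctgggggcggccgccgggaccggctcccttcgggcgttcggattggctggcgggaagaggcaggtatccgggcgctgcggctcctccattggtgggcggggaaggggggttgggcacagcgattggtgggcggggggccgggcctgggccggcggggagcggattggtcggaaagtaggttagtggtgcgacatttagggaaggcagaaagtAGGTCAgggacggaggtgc

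In these windows PER1 held an E-box at -173, AGGTCA at -144 and a D-box at -30, counting the first base of each match from the start site. NR1D2 held E-boxes at -155 and -105 and a D-box at -194, and BHLHE40 an E-box at -245. PER2 held the E-box-like element at -197, and BMAL1 held AGGTCA at 32, downstream of the start. The E-box was found in 3 of the 15 clock windows (PER1, NR1D2 and BHLHE40), against 7.26% of all 35116 windows of that length. The E-box-like element was found in 4 of the 15 (PER2, CRY1, CRY2 and CLOCK), against 5.34% of all windows, and the D-box in 3 (PER1, PER3 and NR1D2), against 3.30%. AGGTCA was found in 4 of the 15, of PER1, BMAL1 and both of CRY2, against 13.8%. No window of the 10 genes held the letters of the cyclic AMP element TGACGTCA (1.85% of all windows) or of the AP-1 site TGANTCA (7.71%). These matches describe the letters of the reference and were not tested as binding sites. Genes with and without an E-box in the window rose: NOCT, with the largest rise, had none of the 6 motifs in its window. Sequence outside these windows was not searched, and any part of the motifs in the rises was not tested.

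Between the YM-155 groups, 3 of the 10 genes passed the test, against 22.6% of all genes: PER1 and NR1D2 were higher at 20 h than at 8 h (8.95% of all genes) and CLOCK was lower (13.6%). At least 2-fold was PER1 alone (2.91% of all genes), and the arrays did not overlap for 6 genes (38.3%). PER1 was 1.05 higher at 20 h than at 8 h (SE 0.22, limma adjusted p = 0.0063). CLOCK was lower, with a difference of -0.33 (SE 0.08, limma adjusted p = 0.0123). The NR1D2 difference of 0.67 (SE 0.21, limma adjusted p = 0.045) lost its call without any 1 of the treated arrays (limma adjusted p between 0.092 and 0.121).

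NOCT (0.66), PER2 (0.63) and CRY2 (0.42) did not overlap between 20 h and 8 h either, but their limma adjusted p-values were 0.0889, 0.175 and 0.0841. These tests take their spread from all 9 arrays. The same differences without control replicate 3 had SEs of 0.12, 0.12 and 0.11 and passed (limma adjusted p = 0.00438, 0.00545 and 0.0203), as did 6 members in all (25.3% of all genes). That array enters these differences only through the shared spread, and it was singled out for its values at clock genes. The added calls are therefore not further evidence here either. The arrays of the treated groups overlapped for BHLHE40, CRY1, BMAL1 and PER3, with differences of -0.05, -0.02, -0.15 and -0.06 (limma adjusted p between 0.772 and 0.893).

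Other genes of the loop were taken from lists chosen with earlier results of these data known. Their counts are to be read against the 13.1% of all genes that were higher and 17.2% lower at 20 h, and the 5.93% higher and 6.28% lower at 8 h. Of the core loop genes outside the 10, 2 of 6 measured rose in each comparison with control. CIART, a repressor of the heterodimer, rose by 0.83 at 20 h (limma adjusted p = 0.000415) and by 0.51 at 8 h (limma adjusted p = 0.0204). RORA, the activating receptor that competes with REV-ERB, rose by 0.64 and 0.65 (limma adjusted p = 0.000697 and 0.00248), from a level below the median of all genes. NPAS2, the paralogue of CLOCK, differed by 0.20 and 0.14, and BMAL2, the paralogue of BMAL1, by -0.15 and 0.06. BHLHE41, the paralogue of BHLHE40, differed by -0.08 and -0.02, and RORB by 0.05 and 0.25; none of these 4 passed the test.

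Among the factors that bind D-boxes, the repressor NFIL3 rose by 2.17 at 20 h (SE 0.10, limma adjusted p = 3.82e-07) and by 1.62 at 8 h (SE 0.10, limma adjusted p = 1.6e-05). NFIL3 had 8.59, 8.53 and 8.50 at 20 h, 8.05, 7.96 and 7.96 at 8 h, and 6.45, 6.54 and 6.14 in controls, with no overlap between any groups. The activators of that family changed less: DBP differed by 0.47 at 20 h (limma adjusted p = 0.0858) and -0.11 at 8 h (0.796), TEF by 0.15 (0.545) and -0.06 (0.889), and HLF rose by 0.32 at 20 h (0.0472) and differed by 0.06 at 8 h (0.826). All 4 of these factors rose at 20 h without control replicate 3. The levels of HLF and TEF were below the median of all genes.

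Of 9 further E-box output genes, 6 rose at 20 h and 4 at 8 h, with medians of 0.66 and 0.41. CDKN1A, the p21 inhibitor of the cell cycle, rose by 1.78 at 20 h (limma adjusted p = 1.56e-06) and 0.96 at 8 h (limma adjusted p = 0.000433). KLF11 and KLF10, Kruppel-like repressors, rose by 1.09 and 1.07 at 20 h and differed by 0.52 and 0.41 at 8 h (limma adjusted p = 0.0648 and 0.0692). The count was 6 at each time without control replicate 3.

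Genes for enzymes that modify clock proteins were called in both directions. Of 12 kinase and phosphatase genes, 4 rose and 3 fell at 20 h, and 4 rose and 1 fell at 8 h, where 30.3% and 12.2% of all genes were called. CSNK1D, a casein kinase that phosphorylates PER proteins, rose by 0.76 at 20 h and 0.40 at 8 h. PRKAA1, an AMP-activated kinase subunit, fell by 0.96 at 20 h and differed by -0.20 at 8 h, and GSK3A rose by 0.87 at 20 h and differed by -0.08 at 8 h. Of 9 ubiquitin ligase and deubiquitinase genes, 4 rose at 20 h and 2 at 8 h. SKP1 rose by 1.02 and 1.07 and FBXW7 by 0.68 and 0.74 at 20 h and 8 h, and SIAH2, a ligase for REV-ERB, rose by 1.13 at 20 h (0.52 at 8 h, limma adjusted p = 0.133).

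Of 12 coactivators and corepressors, 4 rose and 6 fell at 20 h, and 2 rose and 1 fell at 8 h. SIRT1, the deacetylase that acts on BMAL1 and PER2, rose by 1.72 and 0.86. TIMELESS and TIPIN, partners in the replication fork that are also linked to the clock, differed by -1.98 and -1.17 at 20 h and by -0.43 and -0.39 at 8 h, the last of which did not pass (limma adjusted p = 0.0871). Within the nuclease family of NOCT and other deadenylases, 1 of 10 rose and 2 fell at 20 h, and 1 fell at 8 h, shares close to the 30.3% and 12.2% of all genes called. ANGEL2, of the same family, fell by 1.05 and 0.51, while PARN fell by 0.91 and PAN2 rose by 0.48 at 20 h.

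Lists of genes that take part in the response to stimuli known to induce PER1, as regulators or as targets, were also read. Of 13 CREB coactivators and CREB-linked early genes, 11 rose at 20 h and 8 at 8 h, with medians of 2.52 and 1.18. FOSB rose by 4.14 and 2.19, ATF3 by 3.57 and 2.63, and SIK1 by 3.06 and 2.76. The count was 11 at each time without control replicate 3. Of 8 genes of the glucocorticoid receptor and its targets, 5 rose at 20 h and 4 at 8 h, where MT2A was the 1 that fell. DUSP1, a MAP kinase phosphatase that stands in both lists, rose by 2.51 and 1.97, KLF9 by 1.04 and 0.83, and NFKBIA by 1.77 at 20 h (0.29 at 8 h, limma adjusted p = 0.225). TSC22D3, the glucocorticoid-induced leucine zipper, rose by 1.01 and 0.63, and the kinase SGK1 by 1.04 at 20 h (0.15 at 8 h, limma adjusted p = 0.527). The levels of SGK1 and ZBTB16 were below the median of all genes. NR3C1, the receptor itself, rose by 0.39 at 8 h (0.26 at 20 h, limma adjusted p = 0.0558), and ZBTB16 differed by 0.08 at each time. Over the 9 lists together, 80 distinct genes were measured, of which 36 rose and 11 fell at 20 h and 25 rose and 4 fell at 8 h. Of all genes, 13.1% rose and 17.2% fell at 20 h, and 5.93% rose and 6.28% fell at 8 h.

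**Figure D4:**
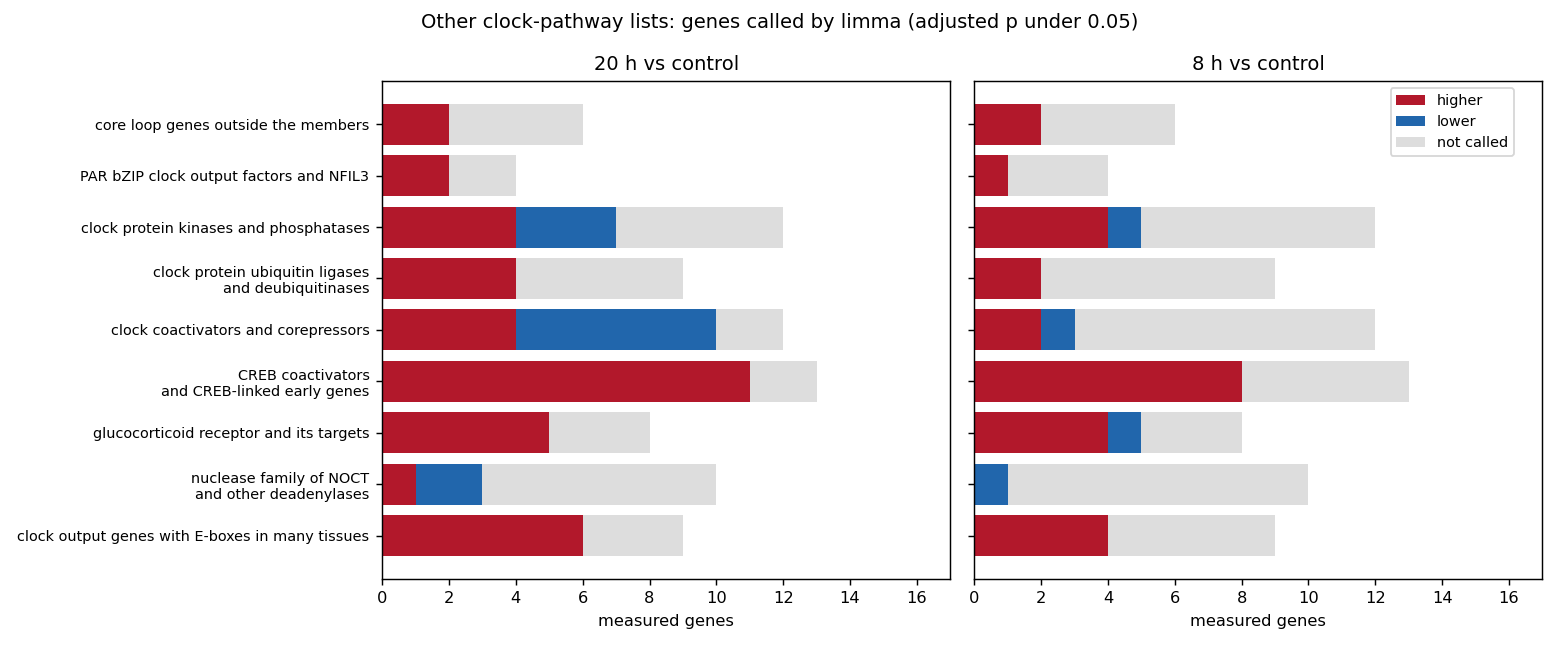
Number of measured genes (x axis) of each other clock-pathway list that were higher, lower or not called by limma, at 20 h (left) and at 8 h (right) against control. The CREB-linked list had the most genes called higher (11 and 8), and lower calls were most frequent among coactivators and corepressors at 20 h (6).

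The genes most like the members were sought over all 9 arrays, for the 4 members with the largest called changes among 10542 other genes above the median level. Likeness is given as Pearson's r across arrays, as a description. The 9 arrays fall into 3 groups that share the controls, and r takes no account of the size of a change. PER1 was closest to FOSB (r = 0.998), ABHD4 (0.995) and ATF4 (0.994). NOCT was closest to DUSP1 (0.997), MTF1 (0.995) and GCLM (0.995). BHLHE40 was closest to OSER1 (0.995), ADAMTS16 (0.994) and ADM (0.994). PER2 was closest to HIPK2 (0.990), CCNI (0.990) and EEIG1 (0.989), although CCNI changed by 0.18 at 20 h and 0.10 at 8 h, against 1.86 and 1.24 for PER2.

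The markers of the line were present: 6 of 7 mesenchymal markers, among them VIM, CD44 and AXL, lay above the median of all genes, and TWIST1 did not. Of 10 luminal epithelial markers 4 lay above it: KRT19, EPCAM, CDH1 and GATA3. ESR1, PGR, FOXA1, ELF5, ERBB3 and CLDN4 did not, and of 5 leukocyte markers none did. The summed log2 levels of the mesenchymal markers were 53.54 to 54.07 at 20 h, 53.76 to 53.94 at 8 h and 51.27 to 52.96 in controls, with no overlap between treated arrays and controls. The sums of the luminal markers were 40.3 to 41.5 at 20 h, 39.6 to 40.8 at 8 h and 39.3 to 40.5 in controls, and those of the leukocyte markers 11.35 to 12.48 at 20 h, 11.39 to 11.59 at 8 h and 11.09 to 11.19 in controls. The leukocyte sums, from markers not above the median, did not overlap between treated arrays and controls either. The part of any of these markers in the changes of the clock genes was not tested.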

How the data were processed

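RNA of 9 samples of MDA-MB-231 cells was measured on Affymetrix whole-transcript arrays, 3 per group. Per the submitters' processing notes, the authors made the deposited log2 values with RMA in Affymetrix Expression Console; versions and genome build are not given in the sources used here. Of 53617 probe sets, 23558 had exactly 1 gene symbol in the platform annotation, 2155 had several and 27904 were not in it. Symbols were updated by gene identifier (1215 genes had no match), and the brightest probe set of a gene was kept, giving 22109 genes. Array medians were 3.11 to 3.20, and the number of arrays limits the precision. No further normalization was applied.

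Group means of all 9 arrays were fitted with lmFit and eBayes of limma 3.58.1, run in R 4.3.3 (6 residual and 4.01 prior degrees of freedom), two-sided, with Benjamini-Hochberg adjustment over all genes and calls at 0.05. The same limma steps were also run separately on simulated data, for the comparison of 20 h with control only. The replicate numbers are not stated to pair the arrays, and the main fit used no pairing. Deviations of same-numbered arrays correlated between -0.318 and 0.111. Arrays of different numbers were not compared, so these values cannot decide whether the arrays were paired. Alternatives were a filter on low levels, all probe sets, probe set means, quantile normalization, centring, a trended robust variance, array weights, a fit of 2 groups alone, a replicate block, 8 h replicates 1 and 2 as 1 sample, and leaving out each array. Members, lists and tests were chosen with earlier results of these data known. All members were named, with up to 3 called genes of each other list, lists of at most 8 in full, and the 3 genes most correlated with each of 4 members. Tables and figures used Python 3.11.15, pandas 2.3.3, numpy 2.4.6 and matplotlib 3.10.9.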

Additional observations from a re-analysis of the deposited data

Results flagged for a closer look

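The changes at 20 h and at 8 h differed for 3 clock genes by the direct limma test of 20 h against 8 h: PER1 by 1.05 (adjusted p = 0.0063), NR1D2 by 0.67 (adjusted p = 0.045) and CLOCK by -0.33 (adjusted p = 0.0123). Of all genes, 22.6% passed that test, a share near that of the 3 in 10 clock genes. The NR1D2 call was lost without any 1 of the treated arrays (limma adjusted p between 0.092 and 0.121). Higher or lower levels at 20 h than at 8 h were seen on all 3 arrays of a group for each of these genes, as for 38.3% of all genes.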

How the results depend on the processing

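Of the 10 clock genes, 9 were called at 20 h against control, 6 at 8 h against control and 3 at 20 h against 8 h. The shares of all genes called were 30.3%, 12.2% and 22.6%. The last count was 5 with array weights and 6 with only the groups compared, and 2 to 6 when each array was left out. The other counts ranged from 8 to 10 at 20 h and from 4 to 9 at 8 h over all alternatives and arrays left out. With the replicate block the counts were 9, 6 and 3, and it changed no call of a member. The numbers are not stated to pair the arrays. NR1D2 at 8 h passed with array weights (0.836, limma adjusted p = 0.00429) and among brighter genes only (limma adjusted p = 0.0375). The sign of an uncalled change turned for PER3 and CRY1. At 20 h against 8 h with repeated quantile normalization, PER3 gave 0.027 and CRY1 0.072. When each array was left out, PER3 gave -0.017 to 0.531 at 8 h and -0.079 to 0.469 at 20 h against control, and -0.128 to 0.054 at 20 h against 8 h, and CRY1 gave -0.048 to 0.005 there. Of 190 pairs of a gene and an alternative per comparison, 172 at 8 h, 184 at 20 h and 166 at 20 h against 8 h kept their sign and side of the threshold. The 47, 29 and 32 genes of the other lists called at 20 h, at 8 h and between them were 42 to 48, 21 to 39 and 28 to 39 over the alternatives. With 8 h replicates 1 and 2 counted as 1 sample, the calls of BMAL1 (limma adjusted p = 0.0583) and PER2 (0.0723) at 8 h and of NR1D2 between the YM-155 groups (0.104) ended. Arrays give no count depth.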

Other observations

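Control replicate 3 also differed from the other controls at genes outside the 10, not only those of the clock. FOSB was 1.41 above the mean of control replicates 1 and 2 on that array, FOS 1.08, the kinase GSK3A 0.80, DUSP1 0.79, SIAH2 0.79 and the CREB coactivator CRTC2 0.76. These were the largest such differences among the genes of the other lists. The early genes ATF3, NR4A1 and NR4A2 differed by 0.26, 0.18 and 0.13. DBP, a D-box activator driven by CLOCK and BMAL1, was 0.74 above the mean of control replicates 1 and 2 on that array, its relative TEF 0.62, the repressor BHLHE41 0.61 and CIART 0.45. NFIL3, which represses the sites that DBP activates, differed by -0.36, and HLF, RORA, BMAL2, NPAS2 and RORB by 0.16, 0.15, -0.01, -0.13 and -0.13. The SD of this difference over all genes was 0.256. DBP had 5.37, 5.22 and 5.31 at 20 h, 4.82, 4.83 and 4.52 at 8 h, and 4.53, 4.63 and 5.33 in controls, so control replicate 3 lay among the 20 h arrays. BHLHE41 had 6.15, 6.36 and 6.32 at 20 h, 6.39, 6.38 and 6.21 at 8 h, and 6.16, 6.13 and 6.76 in controls, where replicate 3 was the highest of all arrays. These values come from 1 array and were not tested.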
